A study of Mus musculus with 8 samples.

Results

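The genes described are 9 that liver cells use to make, store and release glucose: G6pc, Pck1, Fbp1, Pcx, Slc37a4, Slc2a2, Gys2, Pygl and Pklr. They were picked by name out of 63329 gene names on the arrays. All 9 were found on both array designs, with 10 probes on one and 11 on the other. The study transplanted Lin- bone marrow (BM) cells into mice with an injured liver and later sorted the hepatocytes that carried the donor's marker. Gene expression was measured on 8 arrays of 1 colour, 2 in each of 4 groups, and by the legend of the study each array held pooled cells of 3 mice. Lin- BM cells (arrays L3 and L4) are marrow cells freed of cells with mature blood lineage antigens by magnetic negative selection. In the methods they come from female C57Bl6/J-Tg(UBCGFP)30Scha/J mice of 6 to 8 weeks, which express eGFP from the ubiquitin C promoter, so the label marks every donor cell and not a cell type. BM-derived hepatocytes (B1 and B2 at 1 month, G1 and G3 at 5 months) were sorted by flow cytometry on eGFP from perfused livers of the recipients. The recipients were male hemophilia A mice (the F8tm1Kaz allele), 6 to 8 weeks old at injury, which received acetaminophen into the peritoneum and then the Lin- cells into the tail vein. Primary hepatocytes (H2 and H4) are the reference group, and the labels give neither strain, age nor treatment for them. The feeding state of the mice is not given in the sources used here.

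Between meals the liver makes glucose from lactate, amino acids and glycerol by gluconeogenesis. Pyruvate carboxylase (Pcx), cytosolic phosphoenolpyruvate carboxykinase (Pck1), fructose-1,6-bisphosphatase (Fbp1) and glucose-6-phosphatase (G6pc) carry the steps that bypass the irreversible reactions of glycolysis. The last of them acts inside the endoplasmic reticulum, which glucose 6-phosphate enters through the carrier Slc37a4, and glucose leaves the cell through Slc2a2 (GLUT2). Liver glycogen synthase (Gys2) and liver glycogen phosphorylase (Pygl) build and break down glycogen, and pyruvate kinase of liver and red cells (Pklr) runs the other way, as the last step of glycolysis. Hormones of fasting raise Pck1 and G6pc transcription in liver, insulin lowers it, and most of these enzymes have relatives made by other genes in cells that do not release glucose.

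Each value below is a log2 level, that is the log2 of the background-subtracted signal of a probe minus the 75th percentile of its array, so that a level of 0 is as bright as the probe at that percentile. Levels of different genes come from different probes and are not compared. Lin- BM cells and 1-month cells lay on slide 1, and primary hepatocytes and 5-month cells on slide 2 with another array design, so only these 2 comparisons lie within a slide. All 9 genes passed the filter on dim probes on each slide. The threshold for a call was an adjusted p under 0.05 in limma together with a log2 difference beyond 0.6 in size. With 2 arrays per group, an exact two-sided permutation test cannot go below 0.33, and p-values measure only the spread between these arrays. On single arrays 47.7% to 58.6% of spots were well above background, with 0 saturated. Defining markers went with the labels: all 8 hepatocyte markers with a probe were well above background on B1 and B2, against 1 on L3 and 2 on L4, where albumin, Apoa1, Apob, Cps1, Fabp1 and Ttr were below it. The summed level of the 10 marrow progenitor markers was 911 to 976 times the 75th percentile in Lin- BM cells and 4.56 to 7.40 times at 1 month, where Gfi1b and Myb were not well above background. Markers of other liver cells were also higher at 1 month, on a slide where 28.8% of all genes were called higher and 26.5% lower. Of 9 markers of endothelial and stellate cells tested, 7 were called higher than in Lin- BM cells (Clec4g, Stab1, Stab2, Kdr, Lyve1, Lrat and Reln) and 1 lower (Pecam1), with a median log2 difference of 4.85. The summed level of the 10 listed was 77.1 to 93.0 at 1 month and 3.53 to 18.4 in Lin- BM cells, with Des not well above background on any of these arrays. Of 10 Kupffer cell markers, 6 were called higher and 0 lower (median 2.70). On slide 2 the endothelial and stellate sum was 60.5 on H2, 104 on H4 and 93.0 to 113 at 5 months. The part of these cells in the values of the 9 genes was not tested. In such bulk samples, fewer cells of a type and less RNA per cell cannot be told apart.

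The first comparison asks how far the glucose genes of sorted cells differ from the marrow cells that were transplanted. At 1 month, 8 of the 9 genes were called higher than in Lin- BM cells and 0 lower, on a slide where 28.8% of 28522 genes were called higher. Pklr was the exception. The median log2 difference of the 9 was 7.43, also with genes that have only a bound set at that bound, against 0.07 for all genes tested. Both 1-month arrays lay above both Lin- arrays for all 9 genes, which held for a group order in either direction in 82.1% of all genes. In Lin- BM cells 7 of the 9 were well above background on both arrays, and the other two, Slc2a2 and Gys2, on neither.

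Pck1, whose enzyme turns oxaloacetate into phosphoenolpyruvate, lies at chr2:173153073-173159274 (GRCm38). Its log2 level was -3.47 on L3 and -3.43 on L4, and 9.16 on B1 and 8.89 on B2. It was thus low but well above background in both Lin- arrays, and its log2 difference at 1 month was 12.47 (SE 0.27, n = 2, adjusted p = 6.27e-05, limma), or 5690-fold. With normexp background correction, which adds an offset of 50 to each signal, it was 9.94, so the fold depends on how the background is treated. G6pc, which frees glucose from its phosphate, lies at chr11:101367716-101377903. Its level was -2.80 on L3, -3.07 on L4, 7.20 on B1 and 7.52 on B2. The groups stood far apart and the difference was 10.29 (SE 0.29, adjusted p = 7.05e-05), or 1250-fold, and 8.24 with normexp. Both genes are textbook targets of cyclic AMP, glucocorticoid and forkhead signals, and their promoters are shown for that reason. RefSeq (GRCm38.p6) has windows before 12 start sites for 8 of the 9 genes, and Gys2 was not matched. The 250 bases before the start are printed 5′ to 3′, at chr2:173152823-173153072 (plus strand) for Pck1 and chr11:101367466-101367715 (plus strand) for G6pc.
Pck1: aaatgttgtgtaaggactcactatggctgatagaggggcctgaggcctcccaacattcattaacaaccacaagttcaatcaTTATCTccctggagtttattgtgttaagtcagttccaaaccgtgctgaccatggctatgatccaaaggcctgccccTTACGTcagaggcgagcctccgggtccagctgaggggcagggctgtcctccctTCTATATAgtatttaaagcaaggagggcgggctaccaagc
G6pc: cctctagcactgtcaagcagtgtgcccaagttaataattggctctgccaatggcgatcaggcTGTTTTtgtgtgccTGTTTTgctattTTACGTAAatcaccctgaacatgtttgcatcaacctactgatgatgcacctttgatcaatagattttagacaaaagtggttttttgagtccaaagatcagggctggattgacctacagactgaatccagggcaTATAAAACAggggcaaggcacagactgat
Capitals mark matches, on either strand, to the CRE core TTACGT, the forkhead core TGTTTT, the GATA motif AGATAA and the TATA motif TATANA. The CRE core stood 93 bases before the start of Pck1 and 162 before that of G6pc, where its palindromic surroundings match both strands in overlap. In G6pc the TATA match, 29 bases before the start, overlaps a forkhead match on the minus strand, and in Pck1 the TATA motif matches both strands in overlap. Of the 8 genes with a window, 3 held the CRE core in any of their windows (G6pc, Pck1 and Slc37a4). Of all 32851 mouse windows of this length, 2.40% held it. The counts are by gene and the shares by window, so a gene with more than 1 window has more chances of a match. The forkhead core was found in 2 of the 8 (G6pc and Slc37a4) and in 19.8% of all windows. The matches are descriptions of sequence, and binding was not measured on these arrays.

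Fbp1 and Pcx were measurable in the transplanted cells too. Fbp1 (chr13:62864753-62888298) makes fructose 6-phosphate and had levels of 2.77 on L3, 1.35 on L4, 9.46 on B1 and 9.51 on B2. L3 and L4 differed by 1.43, a gap that only 5.64% of genes exceeded, and the rise of 7.43 (SE 0.52, adjusted p = 0.000694, limma) was larger than it. Pcx (chr19:4510472-4621752), the mitochondrial entry step, had levels of 1.34 and 1.80 in Lin- BM cells and 7.10 and 6.90 at 1 month. Its groups were again well apart, by 5.43 (SE 0.30, adjusted p = 0.000368) or 43.1-fold. Of the carriers on either side of glucose-6-phosphatase, Slc37a4 was measurable in Lin- BM cells and Slc2a2 was not. Slc37a4 (chr9:44396946-44402966) had levels of 3.34 and 3.44 in Lin- BM cells and 6.39 and 6.28 at 1 month, a difference of 2.95 (SE 0.26, adjusted p = 0.00125) or 7.70-fold. This was the smallest called difference of the 9 genes. Slc2a2 (chr3:28697903-28728361) was not well above background on L3 and L4, with levels of -6.57 and -6.53, and had 5.77 and 5.97 on B1 and B2. It was at least 1250-fold higher at 1 month (adjusted p = 6.07e-05). This bound is that of the background-subtracted signal, and with normexp the log2 difference was 7.16, which is a smaller fold than the bound. Its other probe on the slide was likewise below background in both Lin- arrays and reached 1.81 and 2.31 at 1 month.

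Both genes of glycogen turnover rose. Gys2 (chr6:142422612-142473130) was not well above background on L3 and L4, at -5.99 and -6.58, and had levels of 6.27 and 6.37 at 1 month. It was at least 1720-fold higher at 1 month (adjusted p = 6.41e-05, limma), whereas the log2 difference with normexp was 7.59, again below the bound. Pygl (chr12:70190815-70227683) was well above background in every array, with 4.70 and 4.10 in Lin- BM cells and 7.83 and 8.02 at 1 month. The arrays did not overlap and the difference was 3.52 (SE 0.32, adjusted p = 0.00140).

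Pklr (chr3:89136122-89146815), the glycolytic member, was the one gene of the 9 not called at 1 month. Its level was -1.82 on L3 and 0.17 on L4, and 0.55 on B1 and 0.29 on B2. The Lin- arrays thus differed by 1.99, more than nearly all other genes (1.97% differed more), and L4 lay close to the 1-month arrays. The difference of 1.24 (SE 0.69, 95% interval -0.53 to 3.02, adjusted p = 0.18) was smaller than this gap. Without L4 it was 2.24 (adjusted p = 0.0157) and was called, with the spread taken from B1 and B2 and L3 assumed to vary like them. Without L3 it was 0.25. The gene has a distal start used in red cell precursors and a proximal one used in liver, and both windows are shown because marrow and liver each transcribe it. They lie at chr3:89135892-89136141 (Pklr distal, plus strand) and chr3:89136373-89136622 (Pklr proximal, plus strand).
Pklr distal: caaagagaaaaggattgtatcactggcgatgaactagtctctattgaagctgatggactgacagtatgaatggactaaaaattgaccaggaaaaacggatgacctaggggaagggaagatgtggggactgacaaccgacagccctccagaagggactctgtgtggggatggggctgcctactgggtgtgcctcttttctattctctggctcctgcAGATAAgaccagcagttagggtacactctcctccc
Pklr proximal: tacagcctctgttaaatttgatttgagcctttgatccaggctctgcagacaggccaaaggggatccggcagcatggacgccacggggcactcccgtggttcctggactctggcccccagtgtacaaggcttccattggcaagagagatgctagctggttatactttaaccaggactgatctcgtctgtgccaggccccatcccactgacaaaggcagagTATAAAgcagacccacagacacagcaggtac
Of the motifs above, the distal window held the GATA motif, 35 bases before the start. The proximal window held the TATA motif, 31 bases before the start. The GATA motif occurred in 9.99% of all windows and in 3 of the 8 genes (Pck1, Fbp1 and Pklr), and the TATA motif in 22.6% of all windows and in 4 (G6pc, Pck1, Slc37a4 and Pklr). A gene is again counted when any of its windows matches, so count and share are not on the same footing. Pklr has 1 probe, of the same sequence on both designs, placed by the array annotation at chr3:88948907-88949425 of mm9. This span of 519 bases is longer than the probe of 60, so it crosses an intron.
Pklr probe: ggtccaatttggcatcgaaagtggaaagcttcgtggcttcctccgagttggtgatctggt
From which start the measured transcripts came was not tested.

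**Figure D1:**
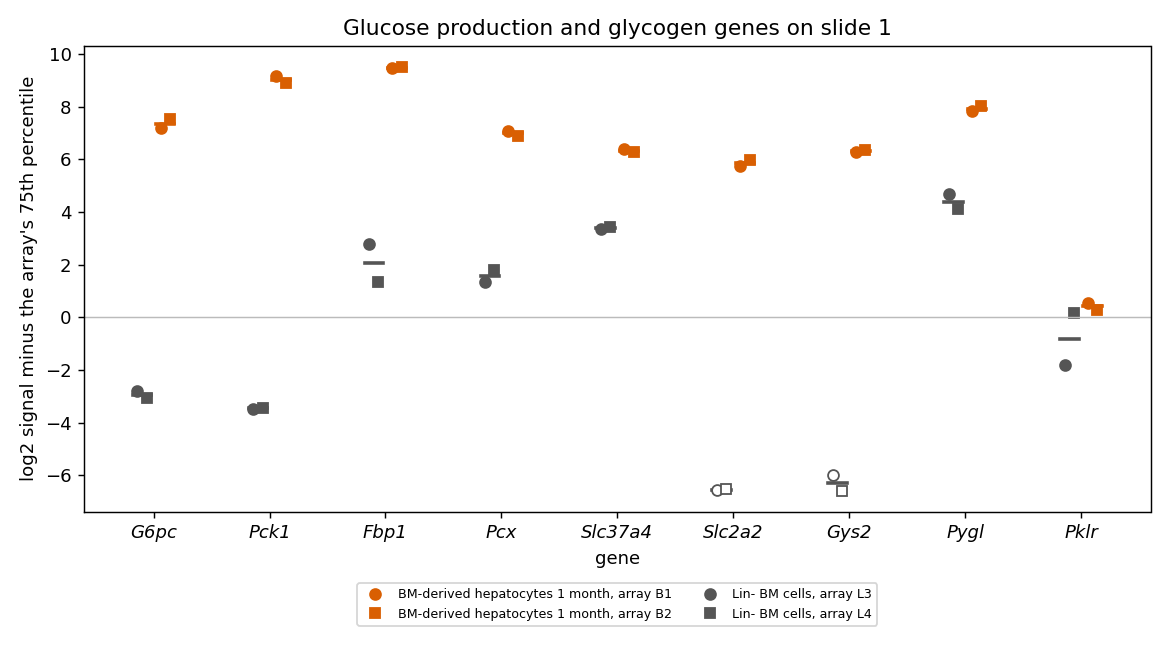
Log2 level (signal minus the 75th percentile of the array) of the 9 genes on slide 1, with a symbol for each array, open where the probe was not well above background, and a bar for the group mean. The 1-month arrays lie above the Lin- BM cell arrays for every gene, the Lin- arrays of Slc2a2 and Gys2 are not above background, and L4 lies close to the 1-month arrays for Pklr.

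Marrow cells run related enzymes from other genes, so the forms were set side by side on slide 1. Of 14 relatives listed, 11 were tested, and at 1 month 9 of these were called lower and 0 higher, where 26.5% of all genes were called lower. The median log2 difference of the 11 was -3.91. Pck2, the mitochondrial carboxykinase, had levels of 3.82 and 5.15 in Lin- BM cells and 0.64 and 0.50 at 1 month, and fell by 3.91 (SE 0.50, adjusted p = 0.00346, limma) while Pck1 rose. G6pc3, the phosphatase of many tissues and of neutrophils, had 3.45 and 3.76 in Lin- BM cells and 0.82 and 0.78 at 1 month, and fell by 2.81 (SE 0.27, adjusted p = 0.00164). Each of these pairs thus changed in opposite directions, with the liver form higher and the other lower in the sorted cells.

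The glucose carriers and glycogen enzymes showed the same arrangement with exceptions. Slc2a3 (GLUT3), a high-affinity carrier of neurons and blood cells, had levels of 2.28 and 2.03 in Lin- BM cells and was not well above background at 1 month. It was at least 44.7-fold lower there (adjusted p = 0.000116). Slc2a1 (GLUT1) did not pass the test, at 0.65 (SE 0.45, adjusted p = 0.268). Among the hexokinases of other tissues, Hk2 fell by 5.73 (SE 0.28), Hk3 by 4.89 (SE 0.48) and Hk1 by 5.27 (SE 0.55). The other Hk1 probes with signal in Lin- BM cells gave smaller differences, from -0.48 to -2.99, so its size depends on the probe. The Hk1 probe shared by both designs was called higher than in Lin- BM cells in primary hepatocytes (1.52, adjusted p = 0.031) and at 5 months (1.37, adjusted p = 0.0443). That probe bears the name of another gene, Gm10223, on the design of slide 1, so which gene it measures is uncertain, and the direction for Hk1 in those groups is too. The brain form of glycogen phosphorylase, Pygb, was not well above background at 1 month and was at least 4.80-fold lower (adjusted p = 0.00225).

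Muscle glycogen synthase, Gys1, was likewise not well above background at 1 month, with levels of -3.95 and -3.56 in Lin- BM cells. It was called lower by its fitted difference (-1.37, adjusted p = 0.0476, limma). No bound can be given for it, so a fall of Gys1 is not shown by these arrays. Pkm, the pyruvate kinase of most other cells, fell by 4.22 (SE 0.42, adjusted p = 0.00171), whereas Pklr was not called. The aldolase of muscle, Aldoa, differed by -0.01 (SE 0.36, adjusted p = 0.979). G6pc2, Fbp2 and Pygm were not tested on this slide, because neither group was well above background on both arrays.

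**Figure D2:**
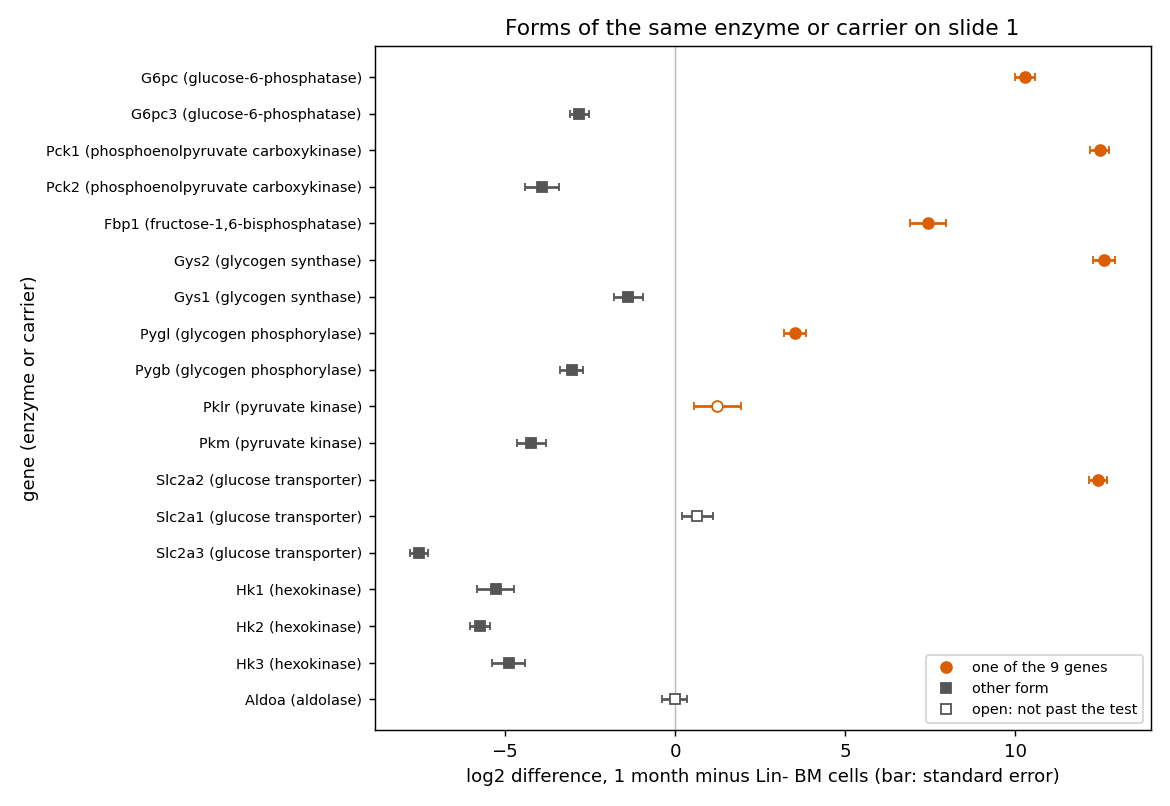
Log2 difference on slide 1 between 1-month BM-derived hepatocytes and Lin- BM cells for forms of the same enzyme or carrier, with bars of 1 standard error and open symbols where the test was not passed. Circles are those of the 9 genes that have such relatives, which lie to the right of 0, and squares the other forms, of which 9 lie below 0 and are called; values of genes below background in a group are fitted differences and not bounds.

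The rest of the glucose pathway was counted from lists of known genes on the same slide, where 28.8% of all genes were called higher and 26.5% lower. The bounds given for these genes hold for the background-subtracted signal. Of 17 other genes of glycogen metabolism, 9 were called higher and 2 lower (median 1.84). Ppp1r3c and Ppp1r3g, which bring a phosphatase to glycogen, were at least 217-fold and at least 176-fold higher, and Stbd1, which tethers glycogen, rose by 7.68 (SE 0.38). Pgm2 fell by 2.79 (SE 0.36) and Gyg, the glycogen primer glycogenin, by 2.10 (SE 0.26). Of 23 other genes of glycolysis and gluconeogenesis, 11 were called higher and 3 lower (median 1.15). Pfkfb4, Ldhb and Pfkfb2 fell by 2.94, 2.29 and 1.05. Of 23 genes that feed lactate, amino acids, glycerol and sugars into the pathway, 20 were called higher and 0 lower (median 3.56). Glycerol 3-phosphate dehydrogenase Gpd1 rose by 8.75 (SE 0.44), alanine transaminase Gpt2 by 7.06 (SE 0.27), and serine dehydratase Sds was at least 110-fold higher.

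Of 25 regulators of these genes, 16 were called higher and 1 lower (median 2.79), beside 28.8% and 26.5% of all genes. Foxa2, a forkhead transcription factor of the liver, was at least 1070-fold higher on the background-subtracted signal, and the glucagon receptor Gcgr rose by 9.86 (SE 0.26). Sirt1, a deacetylase, fell by 1.26 (SE 0.29). Of 13 genes known to rise in liver on fasting, 10 were called higher and 1 lower (median 3.68), with Igfbp1 at least 15800-fold higher, Tat higher by 11.38 (SE 0.29) and Cyp4a14 by 12.47 (SE 0.51), the last above background on 1 Lin- array. Sesn1 fell by 1.32 (SE 0.36). Of 11 genes known to rise with insulin or sugar, 8 were called higher and 0 lower (median 2.85). Among them Thrsp was at least 534-fold higher, Scd1, the stearoyl-CoA desaturase, rose by 8.84 (SE 0.46), and malic enzyme Me1 by 9.80 (SE 0.83), with 1 Lin- array above background.

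The second comparison asks whether 5-month cells still differed from primary hepatocytes. Of the 9 genes, 0 were called by limma, on a slide where 0.552% of 19918 genes were called. At an unadjusted p under 0.05 there was 1 (Pklr), beside 2817 of all genes. The methods' t-test called 0 of the 9, adjusted or not, beside 0% and 6.84% of all genes. The median log2 difference was -0.08 for the 9 genes and 0.04 for all genes. For 4 of the 9 genes (Pcx, Slc2a2, Gys2 and Pklr) the arrays of the groups did not overlap, as in 48.0% of all genes. The 95% intervals below show which differences these arrays could still hold.

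Among the gluconeogenic enzymes, Fbp1 had levels of 10.03 and 10.13 in primary hepatocytes and 9.88 and 10.17 at 5 months, a difference of -0.05 (95% interval -0.64 to 0.54, adjusted p = 0.940). Pcx had 7.31 and 7.42 in primary hepatocytes and 7.50 and 7.60 at 5 months, a difference of 0.19 (-0.35 to 0.73). For both, the interval leaves room for less than a doubling either way. G6pc had 8.27 on H2 and 7.42 on H4, and 7.73 and 7.79 at 5 months, with a difference of -0.08 (-1.02 to 0.86). Pck1 had 7.58 on H2 and 9.65 on H4, and 8.38 and 8.31 at 5 months, with a difference of -0.27 (-2.22 to 1.67). The 5-month arrays lay between the primary arrays for both genes, and the interval of Pck1 is wide enough to hold a difference of several fold.

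Neither carrier passed the test. Slc37a4 had 6.36 on H2 and 7.80 on H4, and 7.03 and 7.07 at 5 months, again between the primary arrays (difference -0.03, interval -1.44 to 1.37). Its other probe on this slide was dim, at -3.62 on H2, -3.96 on H4 (not well above background), -3.35 on G1 and -3.08 on G3. That probe differed by 0.57, and the mean of the probes gave 0.27, which was not called. Slc2a2 had 6.15 and 6.57 in primary hepatocytes and 5.87 and 5.94 at 5 months, a difference of -0.45 (-1.10 to 0.20, adjusted p = 0.492), with both 5-month arrays below both primary arrays. In glycogen turnover, Pygl had 8.14 and 7.99 in primary hepatocytes and 8.24 and 8.10 at 5 months (difference 0.10, interval -0.45 to 0.66). Gys2 had 6.81 on H2, 8.20 on H4, 6.76 on G1 and 6.39 on G3. It showed the largest difference of the 9 genes, -0.93 (-2.33 to 0.47, adjusted p = 0.506, limma), smaller than the gap between H2 and H4, and its other probe gave -0.90. Pklr had 2.61 and 2.45 in primary hepatocytes and 1.92 and 1.48 at 5 months. The difference of -0.82 (SE 0.25, interval -1.50 to -0.15, adjusted p = 0.292) did not pass the adjustment over all genes.

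**Figure D3:**
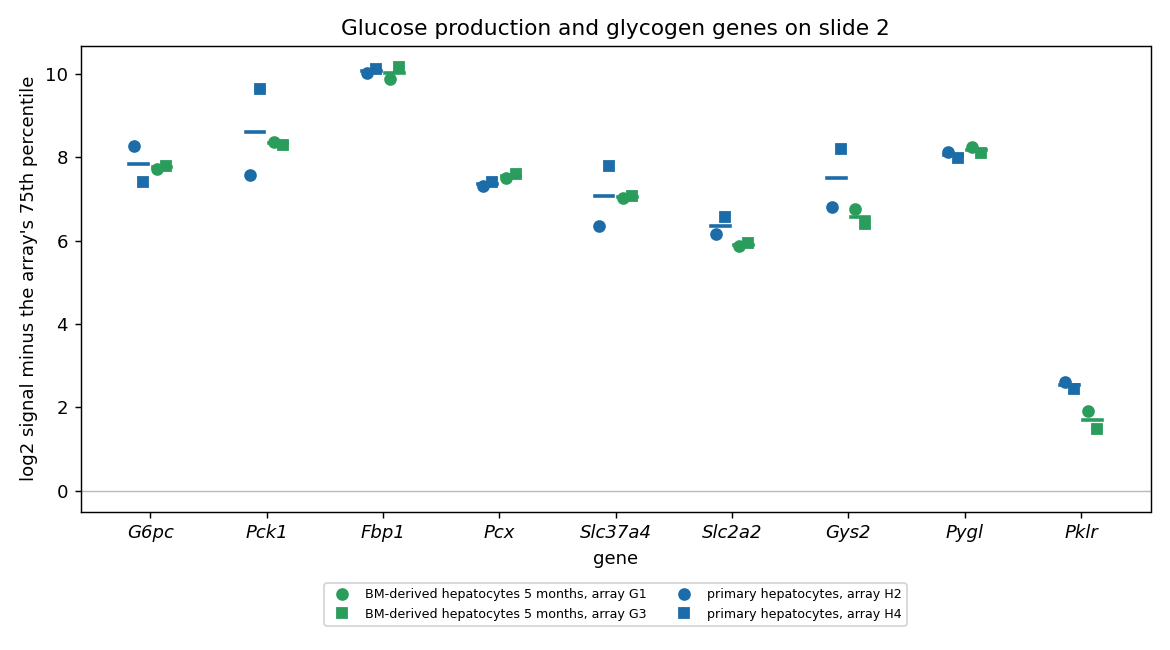
Log2 level (signal minus the 75th percentile of the array) of the 9 genes on slide 2, with a symbol for each array and a bar for the group mean. The arrays H2 and H4 of primary hepatocytes lie apart for Pck1, Slc37a4, Gys2 and G6pc, whereas G1 and G3 of 5-month cells lie within 0.44 of each other for every gene.

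Much of the uncertainty came from the primary hepatocyte arrays themselves. From H2 to H4, Pck1 was 4.19-fold higher (log2 2.07), Slc37a4 2.71-fold (1.44) and Gys2 2.61-fold (1.38), and only 3.99%, 8.14% and 8.71% of all genes differed more between these arrays. G6pc went the other way, by -0.85, and the remaining 5 genes differed by 0.42 or less. Between the 5-month arrays the largest difference of the 9 genes was -0.44, for Pklr. Without H2, Gys2 (-1.63, adjusted p = 0.0325) and Pck1 (-1.30, adjusted p = 0.0415) were called lower at 5 months, with 7.69% of all genes then called. The spread then came from G1 and G3, and H4 was assumed to vary like them. Without H4, Pck1 was 0.76 and Gys2 -0.24, and neither was called. Slc37a4 was -0.75 without H2 and 0.69 without H4, and G6pc 0.35 and -0.51, none of them called. The direction of Pck1, Slc37a4 and G6pc thus depends on which primary array is used.

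Other metabolic genes differed between the same arrays. Of the 13 genes known to rise on fasting, 11 were higher on H4 than on H2 (median 0.68), with Ddit4 at 3.35, Lpin1 at 3.10, Angptl4 at 2.78 and Cpt1a, which admits fatty acids to mitochondria, at 1.50. Of the 12 genes known to rise with insulin or sugar, 3 were higher on H4 (median -0.63). The lipogenic enzymes Fasn and Acly were lower there by 2.24 and 2.06, whereas Thrsp and Txnip were higher by 2.32 and 2.02. Between G1 and G3 the medians of these lists were 0.03 and 0.10. Over all genes, the median difference between H2 and H4 was 0.04, and its median size 0.35. Kupffer cell markers differed between the same arrays: 9 of 9 tested were higher on H4, and the summed level of the 10 with a probe was 24.5 on H2, 51.9 on H4 and 99.5 to 103 at 5 months. Cd163 was not well above background on H2, G1 and G3. The summed level of the hepatocyte markers was 7550 on H2 and 8340 on H4, and that of dissociation stress genes 39.2 on H2, 70.3 on H4 and 67.7 to 68.0 at 5 months. Of 9 stress genes tested at 5 months against primary hepatocytes, 1 was called higher (Fos, 3.15, SE 0.26, adjusted p = 0.0373) and 6 had an unadjusted p under 0.05. At that unadjusted limit lay 2817 of all 19918 genes. The median difference of these stress genes was 1.27, and for 8 of the 9 the groups did not overlap, beside 48% of all genes. The part of these differences in the values of the 9 genes was not tested.

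**Figure D4:**
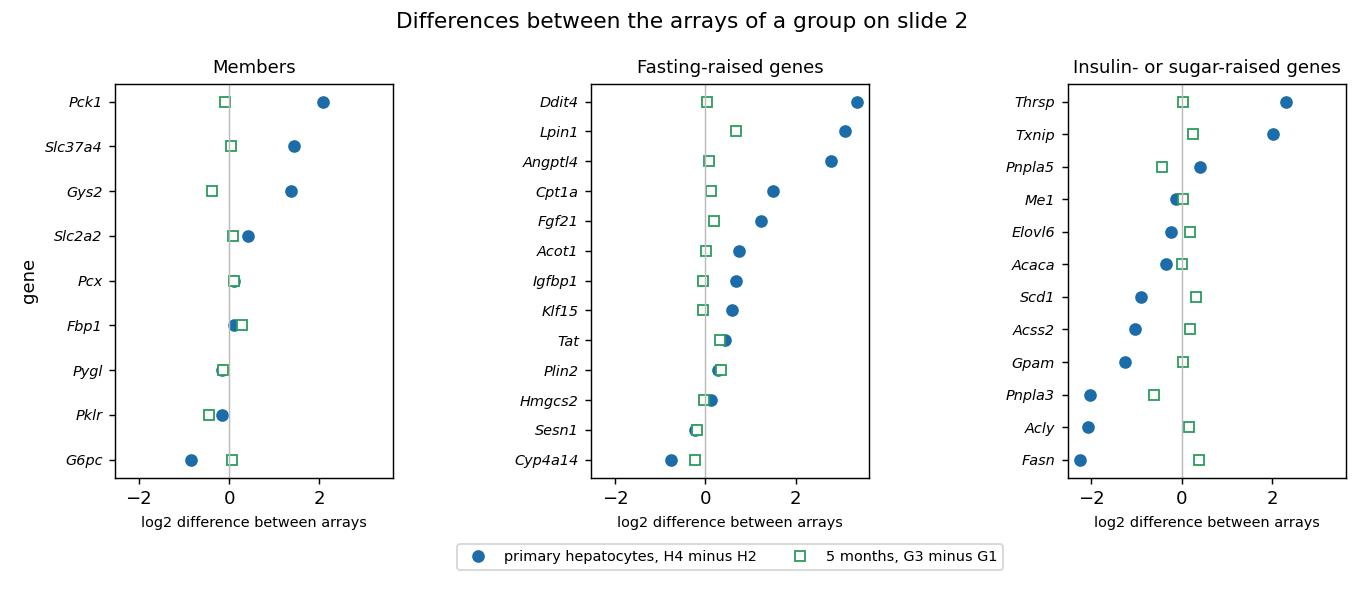
Log2 difference between the 2 arrays of a group on slide 2, for the 9 genes, the genes known to rise on fasting and those known to rise with insulin or sugar. Circles are primary hepatocytes (H4 minus H2) and squares 5-month cells (G3 minus G1): the circles spread from -2.24 to 3.35, to the right for 11 of 13 fasting genes and to the left for 9 of 12 insulin genes, and the squares lie within 0.67 of 0.

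At 1 month, by contrast, B1 and B2 differed by 0.32 or less for each of the 9 genes. The summed level of dissociation stress genes was 535 on B1 and 61.0 on B2, and that of the Kupffer cell markers 11.3 on B1 and 43.5 on B2. In Lin- BM cells, where Clec4f, Folr2 and Vsig4 were not well above background, the Kupffer sum was 1.79 to 5.47, and the stress sum was 195 to 456. The part of these differences in the values of the 9 genes was not tested.

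The relatives and the wider pathway gave few calls between 5-month cells and primary hepatocytes. Of 10 relatives tested, Hk1 through the probe of uncertain name, 0 were called by limma (3 at an unadjusted p under 0.05: G6pc3, Hk3 and Pkm, at 0.57, 1.81 and 1.05). The medians of the wider lists lay between -0.13 and 0.58, and 0 genes were called in the lists of glycogen metabolism (of 18), glycolysis and gluconeogenesis (of 23), precursor supply (of 23), regulators (of 25) and fasting (of 13). At an unadjusted p under 0.05 these lists had 3, 3, 5, 3 and 1 genes. For the lists and the relatives alike, 2817 of all 19918 genes tested had an unadjusted p this low. In the insulin list, 1 of 12 was called. This was Pnpla5, a lipase, with levels of -3.02 and -3.46 at 5 months against primary arrays that were not well above background, at least 1.91-fold higher (adjusted p = 0.0445).

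All 4 groups can be set together for the 6 members whose probe has the same sequence on both designs: G6pc, Fbp1, Slc37a4, Slc2a2, Pygl and Pklr. Pck1, Pcx and Gys2 have none and are left out here. These comparisons run across slides, so slide, design and group cannot be told apart, and they share arrays with each other. Against Lin- BM cells, 6 of 6 were called higher in primary hepatocytes, where 29.3% of 9204 genes were called higher, and 6 of 6 at 5 months, where the share was also 29.3%. Between 1 month and primary hepatocytes 0 of 6 were called (16.7% of all genes), and between 5 months and 1 month 0 of 6 (17.1% of all genes). At an unadjusted p under 0.05 these counts were 1 (Pklr) and 0, beside 2978 and 3196 of all 9204 genes. The methods' t-test, unadjusted, called 1 (Pklr) and 0, beside 19.2% and 24.7% of all genes.

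For 5 of the 6 genes the mean levels of the 3 hepatocyte groups lay near each other, though Slc37a4 had 4.66 on H2 and 6.13 on H4. On the scale of the shared probes, G6pc had mean levels of 5.94 ± 0.27 (SD, n = 2) at 1 month, 6.12 ± 0.01 at 5 months and 6.15 ± 0.58 in primary hepatocytes, against -4.38 ± 0.29 in Lin- BM cells. Fbp1 had 8.07 ± 0.08, 8.38 ± 0.17 and 8.39 ± 0.10 in the same order, against 0.61 ± 1.11. Pygl had 6.51 ± 0.17, 6.52 ± 0.13 and 6.38 ± 0.08, against 2.95 ± 0.53. On this scale the hepatocyte groups of each gene lay within 0.32 of each other, and several log2 units above the marrow cells. With the percentile over all probes, the difference between 1 month and primary hepatocytes was -0.59 for Fbp1, -0.49 for G6pc and -0.14 for Pygl, so their closeness depends on the scaling. Slc37a4 had 4.92 ± 0.04 at 1 month, 5.40 at 5 months with arrays of 5.41 and 5.40, and 5.39 ± 1.04 in primary hepatocytes, against 1.94 ± 0.03. Without H2, its difference between 1 month and primary hepatocytes was -1.22 (adjusted p = 0.0458) and was called. Slc2a2 was at least 1480-fold higher in primary hepatocytes and at least 1120-fold higher at 5 months than in Lin- BM cells, which were not well above background for it, and by log2 differences of 7.91 and 7.50 with normexp.

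Pklr was the gene whose levels were spread across the groups. Its levels were -3.19 and -1.35 in Lin- BM cells, -0.90 and -1.10 at 1 month, 0.30 and -0.19 at 5 months, and 0.90 and 0.78 in primary hepatocytes. The arrays of no 2 groups overlapped in this order, but no neighbours in it passed the test. Within slide 1 and slide 2 the groups did not overlap in 82.1% and 48.0% of all genes, and the share across slides is not given here. The step from 1 month to 5 months also changes slide and design. From 1 month to 5 months the difference was 1.06 (95% interval -0.30 to 2.41, adjusted p = 0.232, limma). Between 1 month and primary hepatocytes it was -1.84 (SE 0.56, interval -3.19 to -0.49, adjusted p = 0.0722, limma), which did not pass either. It passed narrowly when no filter on dim probes was used (-1.84, adjusted p = 0.0496), where 30.5% of all genes were called. Against Lin- BM cells it was higher by 3.11 in primary hepatocytes (SE 0.56, adjusted p = 0.00272) and by 2.33 at 5 months (SE 0.56, adjusted p = 0.00981). The value at 5 months was not called without G1 (2.09, adjusted p = 0.0571).

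**Figure D5:**
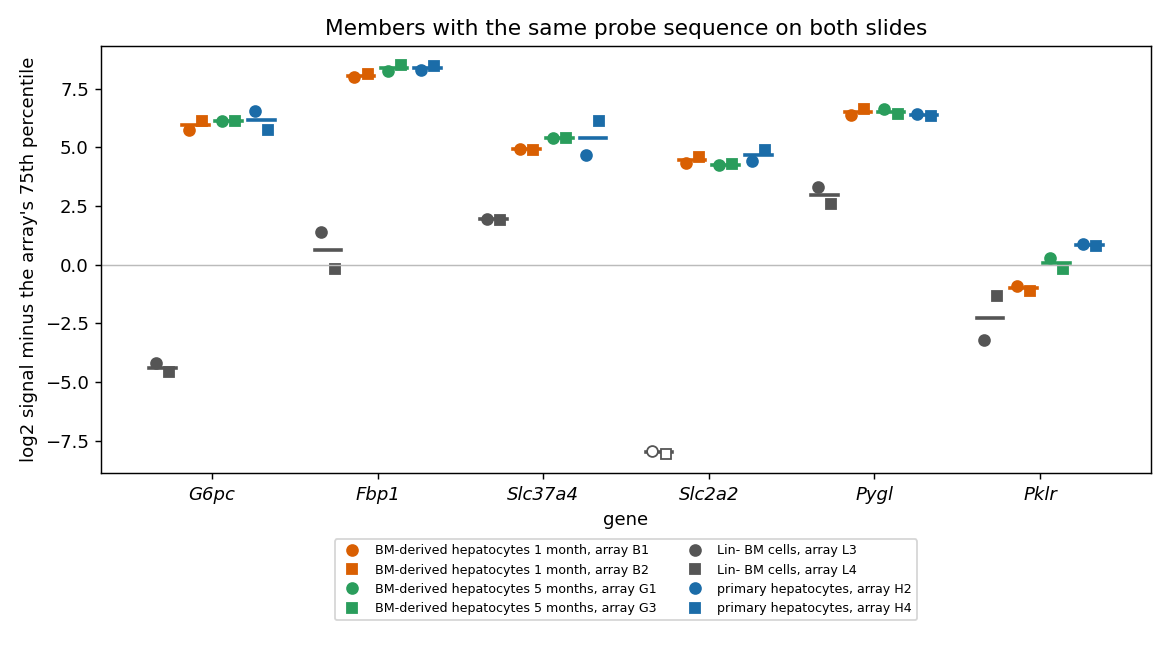
Log2 level (signal minus the 75th percentile over shared probes) of the 6 genes with the same probe sequence on both slides, with a symbol for each of 8 arrays, open where the probe was not well above background, and a bar for the group mean. The hepatocyte arrays lie close together for G6pc, Fbp1, Slc2a2 and Pygl, and Slc37a4 is spread by H2 and H4. The Pklr arrays lie higher in the order Lin- BM cells, 1 month, 5 months and primary hepatocytes, where 1 month and 5 months lie on different slides.

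Over the 8 arrays, the genes whose levels ran most like the mean of the 6 were Ddt and Apol7a (Pearson's r = 0.9997 each), Hrg and Aass (0.9996 each) and Tat (0.9995), of 9198 genes ranked. This is a description, since the arrays fall into marrow and hepatocyte samples and any gene that separates these has a high correlation.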

How the data were processed

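The deposited data were the scanner output of 8 Agilent arrays of 1 colour. Per the file headers, Feature Extraction 11.5.1.1 had given background-subtracted intensities for each spot, and the authors also deposited log2 values shifted to the 75th percentile in GeneSpring GX, which are used here as an alternative. The number of arrays limits the precision. Here, outlier spots were left out, spots of a probe averaged, and the log2 intensity minus the array's 75th percentile was taken, over all probes of a design within a slide and over the 13991 probe sequences shared by both designs across slides. A probe had to be well above background on each array of some group, and the brightest probe stood for a gene, which left 28522 genes on slide 1, 19918 on slide 2 and 9204 shared.

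Groups were taken from the sample labels and compared with limma 3.58.1 in R 4.3.3 (lmFit and eBayes, Benjamini-Hochberg adjustment over all genes tested), with 1 fit per slide and 1 fit of 4 groups over shared probes. Means are given with SD, differences with SE or 95% intervals. A gene below background on both arrays of a group is given as a bound, the mean of the other group over the higher of the lowest well-measured signal and its own. Such a bound holds for the background-subtracted signal only. With normexp the fold can be smaller, as it was for Slc2a2 and Gys2. The study's own test was Student's, with the same limit of 0.6, and its methods name no adjustment. The scripts were tested on simulated data. The genes named are all 9 members, their relatives, up to 3 called genes of each direction and list at 1 month and 5 months, and the 5 genes most like the members. The members and lists were chosen with earlier results of these data known. Some listed genes are counted but not reported here by name. Genes named from the differences between H2 and H4 were chosen after their values were seen. Promoter windows are from RefSeq (GRCm38.p6) and gene places from GRCm38. Figures were drawn with matplotlib 3.10.9 in Python 3.11.15.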

Additional observations from a re-analysis of the deposited data

How the results depend on the processing

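Each result was recomputed with normexp background correction (offset 50), quantile normalization, no filter on dim probes, the mean of a gene's probes, the values processed by the authors, the methods' t-test, each array left out in turn and, within slides, 4 groups over shared probes with and without slide as a block, which gave the same values by construction (across slides, the percentile over all probes instead). No value of a called gene changed its sign. Of the values not called, 7 changed sign at 5 months against primary hepatocytes, 6 at 1 month against primary hepatocytes and 7 at 5 months against 1 month.

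At 1 month against Lin- BM cells, 5 of 6 genes were called over shared probes, with or without slide as a block. Pck1, Pcx and Gys2 have no probe there, and 62.7% of all 9204 genes were called in either direction. Leaving out an array gave 8 to 9 of 9. Fbp1 was not called with the adjusted t-test (adjusted p = 0.052), which called 16% of all genes in either direction. The relatives called lower numbered 7 to 9 of 11 under the other settings with all probes and 3 with the adjusted t-test. Normexp moved the median difference of all genes there from 0.07 to 0.36, and no filter moved it to 0.75. At 5 months against primary hepatocytes, leaving out an array gave 0 to 2 called (2 without H2), while the share of all genes called was 0.00% without G1 or G3 and 7.69% and 8.15% without H2 or H4. At 1 month against primary hepatocytes, 1 was called with normexp (Pklr, -1.42), 1 with no filter and 1 with the unadjusted t-test. The shares of all genes called under these settings were 26.2%, 30.5% and 19.2%. With an array left out, the difference ranged from -1.94 to -1.74 for Pklr and from -1.22 to 0.26 for Slc37a4. Leaving out an array gave 6 to 6 for primary hepatocytes and 5 to 6 for 5 months, both against Lin- BM cells, and 0 to 0 for 5 months against 1 month. With the adjusted t-test, Pklr and Slc37a4 were not called in primary hepatocytes against Lin- BM cells, nor Pklr at 5 months. The unadjusted t-test called 5 of 6 in each, all but Pklr. The shares of all genes called in either direction were 27.3% and 36.2% with the adjusted t-test, and 49.7% and 54.1% with the unadjusted one. With an array left out, the lone array was assumed to vary like the others of the fit. No paired analysis was possible because the groups compared share at most 1 replicate number.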
